A study of Macaca mulatta with 22 samples.

Results

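HNRNPA2B1, HNRNPC and CIRBP are 3 genes of RNA-binding proteins whose own transcripts carried an m6A peak in every animal of a study of infant anaesthesia. They were chosen by presence in the lists: all peaks called in the Ensembl macaque gene of each symbol were taken, and each gene had at least 1 peak in all 11 lists. They are 3 of 3671 genes with a peak in any animal and 3 of 81 genes with a peak in all 11, and they hold 33 of 10069 peaks. Presence therefore describes the choice and is not a result. In m6A-seq (MeRIP-seq) an antibody pulls down fragments with N6-methyladenosine, and stretches of transcripts enriched by it are reported as peaks.

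The tissue was prefrontal cortex of rhesus macaques (Macaca mulatta) at postnatal day 35. Control animals were the males A and B and the females C, C1, C2 and C3 (n = 6). Sevoflurane animals were the males D and S1 and the females F, S2 and S3 (n = 5). Per the labels, exposure was to the anaesthetic sevoflurane, inhaled at about 2.5 to 3% in sessions of 4 h near postnatal days 7, 21 and 35. The labels give no strain or genotype, do not say what the controls inhaled, and carry the exposure text on every sample, so the treatment label alone separates the groups. Each list comes from 1 animal, so p-values measure the spread between animals.

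N6-methyladenosine is written on nascent mRNA by the METTL3-METTL14 complex and is read by proteins that alter splicing, export, stability or translation. It is known to gather in long internal exons, around stop codons and in 3' UTRs. HNRNPA2B1 is a nuclear protein of splicing and RNA transport that has been described as a reader of m6A in primary microRNA transcripts and that carries RNAs into neuronal processes. HNRNPC binds uridine tracts in nascent RNA, and m6A can open local RNA structure so that such a tract becomes accessible to it. CIRBP is a glycine-rich RNA-binding protein induced by mild cooling and cellular stress. All 3 bind RNA, but the peaks described here lie on the mRNAs that encode them.

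The lists held 452 to 1210 peaks in controls and 852 to 1673 after sevoflurane, so lists were longer in treated animals, and the control C3 had 1210. Read totals are not part of the tables and the depth is unknown. RNA levels were not compared, so a change in a peak could not be told apart from a change in the transcript. Fewer cells of a type and less RNA per cell cannot be told apart in tissue samples. As a check of the tissue, markers were looked up among genes with a peak: 1 of 8 neuronal (SYT1, in 2 controls), 1 of 5 astrocyte, 2 of 5 oligodendrocyte (CNP in 6 animals), 1 of 4 microglial and 0 of 4 endothelial markers had one. These counts show peaks and not RNA, since an expressed transcript can lack a peak.

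Each of the 3 transcripts carried exactly 1 peak in each animal, and within a gene the peaks of all animals overlapped. Of the 81 genes with a peak everywhere, 19 had a single peak in every list, and 68 had at least 1 base under a peak in all 11 animals. The 3 genes differed in where along the gene the peak lay and in how much of it the animals shared. Coordinates are those of the rheMac8 assembly.

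The HNRNPA2B1 gene lies on chromosome 3 from 82010460 to 82021158 (plus strand). Its peaks joined into a region from 82014678 to 82018986 that ran over 7 exonic blocks with gaps between them. Whether each gap is an intron, such as the short one after 82014769, was not examined. A stretch of 360 exonic bases in 5 blocks was under a peak in every animal. These blocks ran from 82014768 to 82014769, 82014800 to 82014880, 82015382 to 82015444, 82017573 to 82017692 and 82017927 to 82018020. They made up 60.1% of the 599 exonic bases under a peak in any animal, the fifth highest share among the 81 genes, for which the median was 23.8%. The deposited annotation labelled the peak with exon 5 or exon 6 of 11 in all animals but S3, whose peak carried the 3' UTR label. Each label names 1 part only, while the peaks ran over 5 to 7 exonic blocks. Peak midpoints lay between 55.5% and 59.6% of the way along the gene. HNRNPA2B1 thus had a broad peak over several exonic blocks, with the shared part 3138 genomic bases short of the annotated gene end. These positions count genomic bases with introns included, so the place in the spliced RNA was not determined.

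Single animals differed in how far the HNRNPA2B1 peak reached past the shared part. C1 and S1 had only the shared 360 bases. The upstream 60 bases before it were under a peak in 8 animals, 4 of each group, and the last 59 bases (22 and 37 in separate blocks) in S3 alone.

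The HNRNPC gene lies on chromosome 7 from 82441976 to 82465818 (minus strand). Its peaks joined into a region from 82442094 to 82442698 in exons. Here the shared part was a single run of 60 bases from 82442281 to 82442340, 22.6% of the 265 exonic bases under any peak. It lay 305 bases from the 3' end of the annotated gene, and peak midpoints lay between 97.97% and 98.8% of the way along it. C1 had the shortest peak, with 90 bases, and C3 the longest, with 265. The 29 bases nearest to the 3' end were under a peak in the controls C and C3 and in no sevoflurane animal. The next 28 bases were under one in C, C2, C3 and S2. Both stretches were picked after their values were seen and were not tested. HNRNPC thus had a narrow peak near the annotated end of the gene.

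The CIRBP gene lies on chromosome 19 from 1048920 to 1057111 (plus strand). Its peaks joined into a region from 1055526 to 1056801, and all 11 carried the 3' UTR label. The part shared by all animals was short, 31 bases from 1055877 to 1055907, or 6.5% of the 477 exonic bases under any peak. The limit came from 2 controls, since the peak of C1 ended at its last base and that of B began at its first. The 149 bases upstream of it were under a peak in all animals but B, and the 59 bases downstream in all but C1. Further downstream, a block from 1056342 to 1056366 was under a peak in 1 control (C2) and 4 sevoflurane animals (D, F, S1 and S2). The 5 bases before it in the spliced RNA (1055997 to 1056001) were under a peak in the same animals. Both were picked after their values were seen, and single blocks were not tested.

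**Figure D1:**
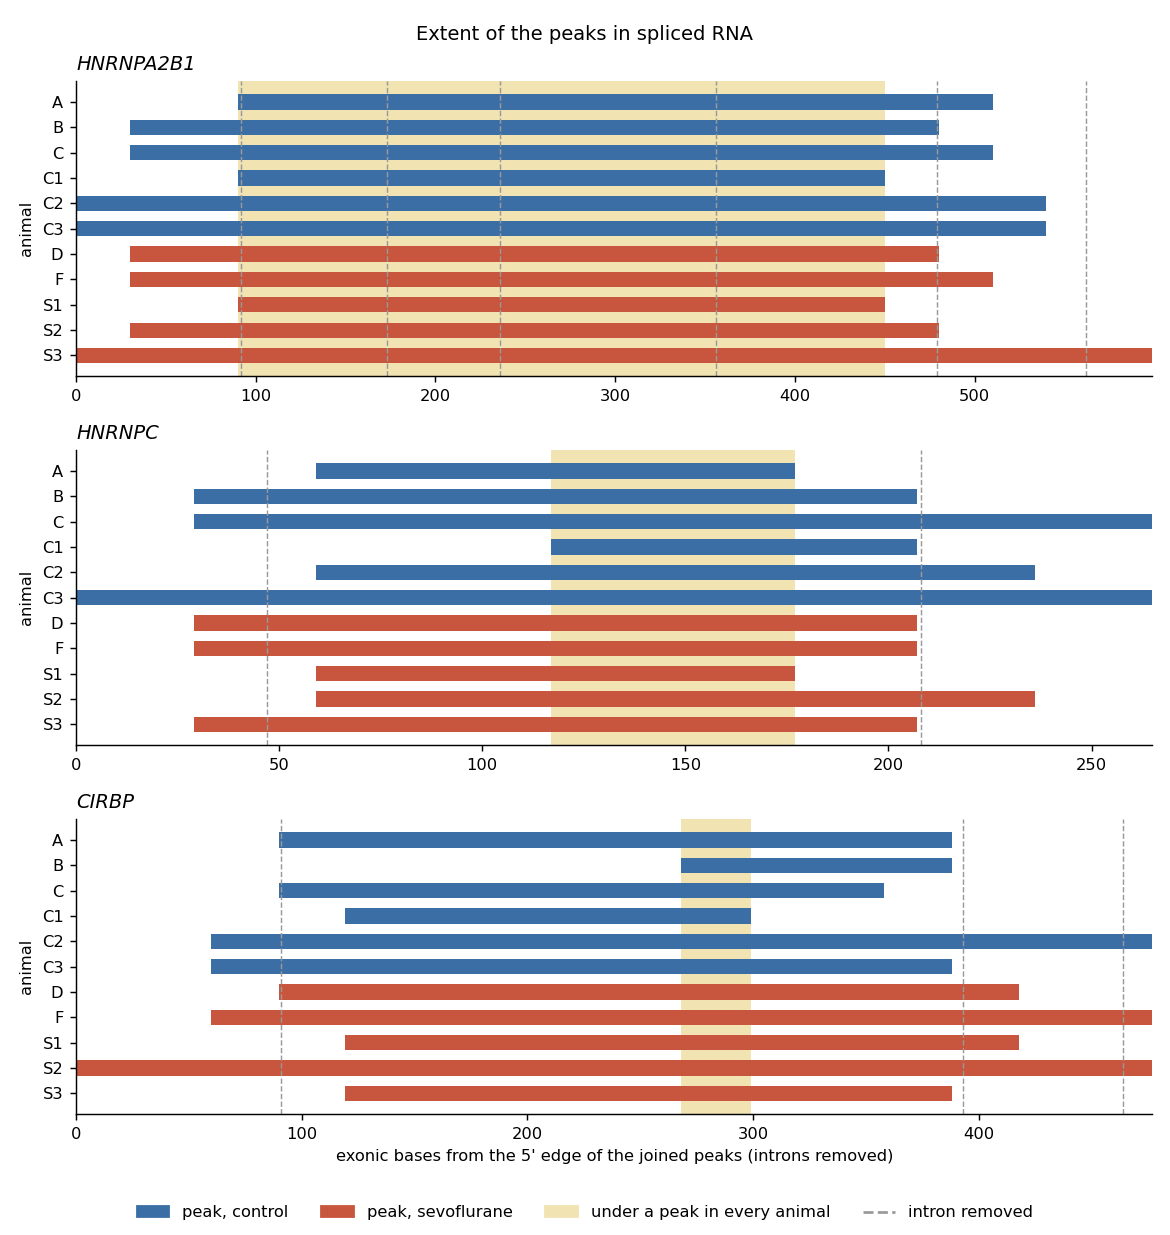
Extent of the peak in each animal (rows; controls blue, sevoflurane red) in exonic bases from the 5' edge of the joined peaks, with the gaps between exonic blocks (labelled as introns) removed at dashed lines and the bases under a peak in every animal shaded. The shaded part spans 360 bases in HNRNPA2B1, 60 in HNRNPC and 31 in CIRBP.

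Pairs of animals shared most of their HNRNPA2B1 bases. The median Jaccard index over the 55 pairs, the shared share of all bases under either peak, was 0.833 for HNRNPA2B1, 0.668 for HNRNPC and 0.688 for CIRBP. The same bases were called in 6, 8 and 1 pairs. The mean index was 0.82 within groups and 0.839 between groups for HNRNPA2B1, 0.667 and 0.697 for HNRNPC, and 0.641 and 0.66 for CIRBP. The mean index within groups was thus not higher than that between groups in any of the 3 genes.

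The fold enrichment of a peak is the authors' own ratio. CIRBP had the highest enrichment of the 3 genes in 11 of 11 animals, with a median of 38.9. HNRNPA2B1 and HNRNPC had medians of 9.59 and 6.03 and changed places between animals, HNRNPA2B1 being the higher in 5 of 11. The order by p-value was another: the HNRNPA2B1 peak had a smaller p than that of HNRNPC in 11 of 11 animals and than that of CIRBP in 10 of 11 (all but S1), with a median log10 p-value of -48.8 against -12.6 for CIRBP and -7.53 for HNRNPC. CIRBP had a smaller p than HNRNPC in 10 of 11 (all but C).

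Ranked within each list, these differences became percentiles, where 100 is the top gene of a list. By enrichment the median percentile over the 11 animals was 58.5 for HNRNPA2B1, 52.0 for HNRNPC and 93.6 for CIRBP. By p-value it was 96.8, 65.6 and 83.7. The median of the 81 genes was 78.0 by enrichment and 91.1 by p-value. HNRNPA2B1 stood at place 63 of 81 by enrichment and place 20 by p-value, HNRNPC at places 67 and 79, and CIRBP at places 23 and 60. HNRNPA2B1 thus combined a middling enrichment with a very small p. Its stretch was the longest of the 3, with a median of 450 exonic bases against 178 for HNRNPC and 299 for CIRBP. The median of the 81 genes was 356 bases. Such a combination was not particular to HNRNPA2B1: HNRNPU, another hnRNP, had median percentiles of 37.05 by enrichment and 96.89 by p-value over 389 bases.

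**Figure D2:**
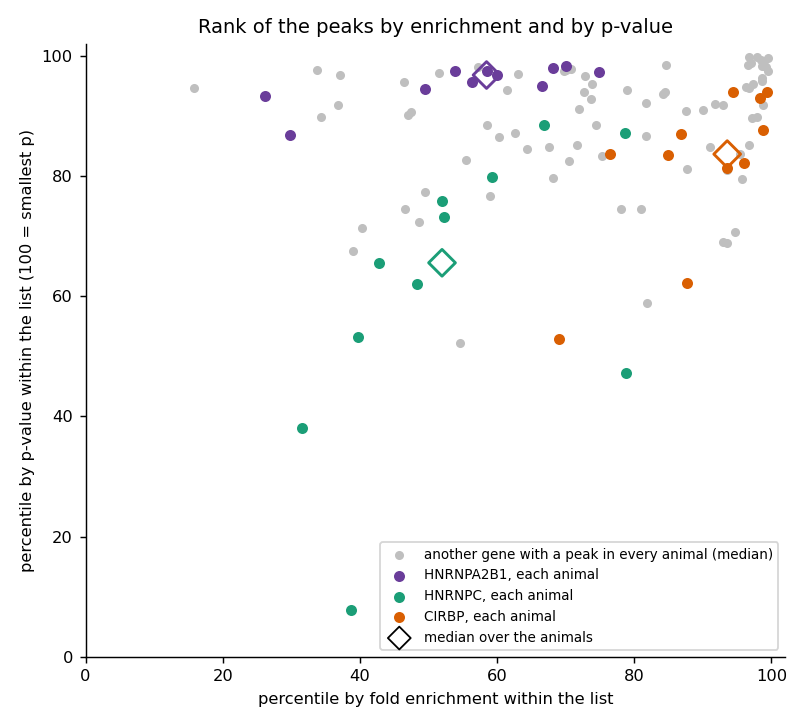
Percentile of the peak within each list by fold enrichment (x axis) and by p-value (y axis, 100 being the smallest p), for each animal (small points) and as the median over the 11 animals (diamonds), with medians of the other 78 genes found in every animal in grey. HNRNPA2B1 lies at 58.5 and 96.8, HNRNPC at 52.0 and 65.6 and CIRBP at 93.6 and 83.7.

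The comparison of control and sevoflurane animals asks whether repeated anaesthesia is followed by a different peak. Over the 81 genes, the strongest peak was more enriched after sevoflurane in 64 and less in 17, and the median log2 difference was 0.363. The adjusted p was under 0.05 for 0 genes (0.0%), but the test could not call a single gene on its own. The smallest possible permutation p is 0.00216, and the gene that reached it had an adjusted p of 0.175. Several genes would have to reach such a p together for any to pass. The other permutation tests over the 81 genes have a limit at least as strict. Before adjustment, the exact permutation p was under 0.05 for 4 genes with higher (4.94%) and 0 with lower values (0.0%). None of the 3 genes was among these. The values of each follow.

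HNRNPA2B1 had nearly the same enrichment in both groups. In controls it ran from 3.99 in C1 through a median of 8.39 to 14.9 in C2. After sevoflurane it was 9.64 in D, 8.76 in F, 4.13 in S1, 11.1 in S2 and 11.8 in S3. The groups overlapped over most of their range, and C1 and S1 stood apart below the rest, which were at 6.78 or more. The log2 enrichment was 3.06 ± 0.68 (SD, n = 6) in controls and 3.10 ± 0.61 (SD, n = 5) after sevoflurane, and the difference of 0.034 (95% interval -0.85 to 0.94) had a two-sided exact permutation p of 0.944 and an adjusted p of 0.968. In fold terms the interval ran from 0.553 to 1.91, which is the range of change that 11 animals left unresolved.

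HNRNPC had lower values after sevoflurane, against the direction of most of the 81 genes, without passing the test. In controls its enrichment ran from 4.63 in C1 through a median of 10.85 to 24.8 in B. After sevoflurane it was 5.68 in D, 9.08 in F, 4.57 in S1, 6.03 in S2 and 5.59 in S3. The sevoflurane animals lay close together at the low end of the control range, in which B, C and C3 exceeded all of them and A, C1 and C2 fell within their range. The log2 enrichment was 3.38 ± 0.94 (SD, n = 6) in controls and 2.59 ± 0.36 (SD, n = 5) after sevoflurane. The ratio of geometric means was 0.578, with bounds of 0.277 and 1.19 (log2 difference -0.79, exact permutation p = 0.117, adjusted p = 0.518). Only 2 of the 81 genes had a lower difference.

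CIRBP had higher values after sevoflurane, also without passing the test. In controls its enrichment ran from 11.2 in C1 through a median of 33.25 to 58.8 in C3. After sevoflurane it was 20.9 in D, 47.7 in F, 120 in S1, 38.9 in S2 and 94.3 in S3. S1 and S3 exceeded every control, while D was below all controls but C1. The log2 enrichment was 4.96 ± 0.84 (SD, n = 6) in controls and 5.74 ± 1.01 (SD, n = 5) after sevoflurane. The ratio of geometric means was 1.72, with bounds of 0.693 and 4.05 (log2 difference 0.78, exact permutation p = 0.197, adjusted p = 0.538). Among animals named by a single letter (A, B and C against D and F) it was -0.25, with an exact permutation p of 0.60. It was 0.48 without C1 and 0.49 without S1.

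**Figure D3:**
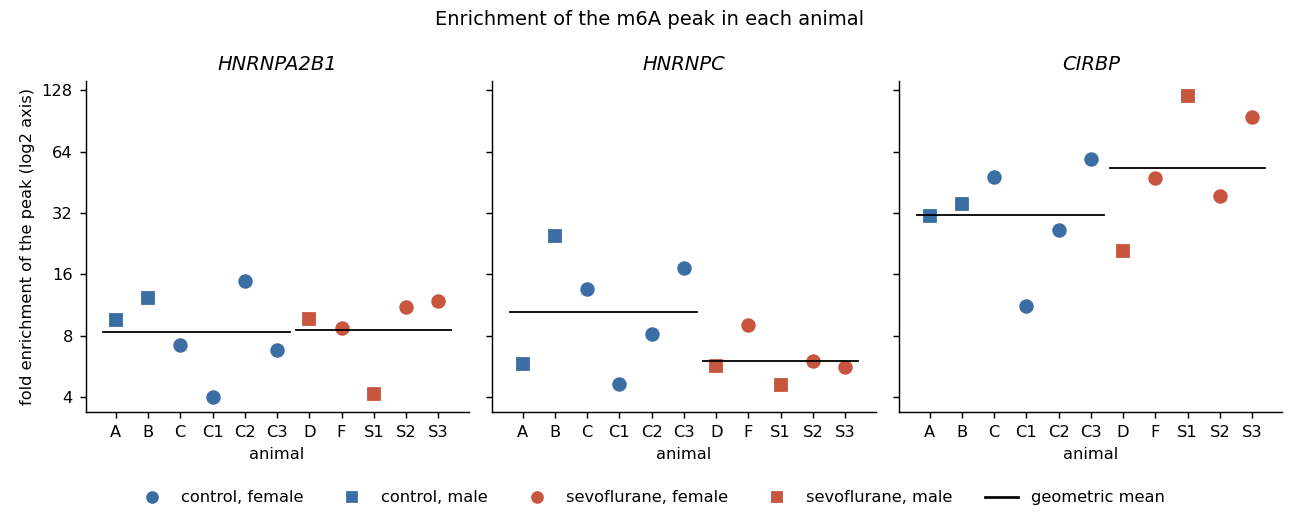
Fold enrichment of the peak (log2 axis) in each control (blue) and sevoflurane (red) animal, circles for females and squares for males, with the geometric mean of each group as a line. Both groups overlap in all 3 genes, and the HNRNPC values after sevoflurane lie between 4.57 and 9.08.

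C1 had the lowest control enrichment of all 3 genes. S1, the sevoflurane animal with the shortest list, had the lowest treated value for HNRNPA2B1 and HNRNPC and the highest for CIRBP. A low value in an animal was thus not shared by the 3 genes in S1.

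The percentile within the list, which does not depend on the scale of enrichment, differed in the same direction for each of the 3 genes. It was higher after sevoflurane in 66 of the 81 genes and lower in 15. Of the 81 genes, 0 passed the adjustment (0.0%), 8 stood higher (9.88%) and 1 lower (1.23%) by an exact permutation p under 0.05 before it, and the median difference was 6.42 points. HNRNPA2B1 stood at 54.4 ± 14.3 (SD, n = 6) in controls and 57.5 ± 18.7 (SD, n = 5) after sevoflurane (difference 3.18, interval -19.7 to 24.5, exact permutation p = 0.725, adjusted p = 0.884). HNRNPC stood at 59.2 ± 18.3 (SD, n = 6) and 46.8 ± 10.4 (SD, n = 5; difference -12.4, interval -33.9 to 9.5, exact permutation p = 0.206, adjusted p = 0.511). CIRBP stood at 86.8 ± 10.1 (SD, n = 6) and 92.9 ± 9.38 (SD, n = 5; difference 6.16, interval -7.25 to 19.4, exact permutation p = 0.327, adjusted p = 0.606). The difference of HNRNPC was the second lowest of the 81. That of CIRBP was below the median of the 81 genes, at place 42 from the highest, against place 18 in log2 enrichment. It was 2.62 without C1 and 10.3 without D.

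Because the lists differ in length, the rank was also taken among the 81 genes alone. On that scale HNRNPC stood at 33.4 ± 16.0 (SD, n = 6) in controls and 11.4 ± 8.83 (SD, n = 5) after sevoflurane. Its place among the 81 ran from 37 to 70 in controls and was 75 in D, 60 in F, 72 in S1, 78 in S2 and 76 in S3. The difference of -22.1 had an exact permutation p of 0.0281, but it did not pass the adjustment (adjusted p = 0.584), and 5 of 81 genes (6.17%) were lower at such an unadjusted p and 1 (1.23%) higher, with 0 (0.0%) at an adjusted p under 0.05. HNRNPA2B1 turned to a difference of -4.65 (exact permutation p = 0.478, adjusted p = 1) and CIRBP kept 4.03 (exact permutation p = 0.671, adjusted p = 1). When HNRNPC was ranked in its list by p-value, its difference was 4.775 in the other direction (exact permutation p = 0.779, adjusted p = 0.859).

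The number of exonic bases under peaks was higher after sevoflurane in 72 of the 81 genes, with a median difference of 63.0 bases. Before adjustment 12 genes were higher (14.8%) and 0 lower (0.0%) by an exact permutation p under 0.05, and 0 (0.0%) passed it. CIRBP had 268.5 ± 106 bases (SD, n = 6) in controls and 358 ± 86.5 (SD, n = 5) after sevoflurane. In controls it ran from 120 in B through a median of 283 to 417 in C2, and after sevoflurane it was 328 in D, 417 in F, 299 in S1, 477 in S2 and 269 in S3. The difference of 89.5 bases (interval -48.7 to 223) had an exact permutation p of 0.149 and an adjusted p of 0.427.

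HNRNPA2B1 had 465 ± 70.4 bases (SD, n = 6) in controls and 468 ± 86.1 (SD, n = 5) after sevoflurane, a difference of 2.8 bases (interval -103 to 113, exact permutation p = 1, adjusted p = 1). HNRNPC had 177 ± 66.8 (SD, n = 6) and 166 ± 26.7 (SD, n = 5), a difference of -11.5 (interval -85.9 to 58.3, exact permutation p = 0.751, adjusted p = 0.845). The number of peaks in each of the 3 genes was 1 in all animals, while 3 of the 81 genes (3.7%) had more peaks after sevoflurane by an exact permutation p under 0.05 before adjustment, 0 had fewer (0.0%) and 0 (0.0%) passed the adjustment.

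**Figure D4:**
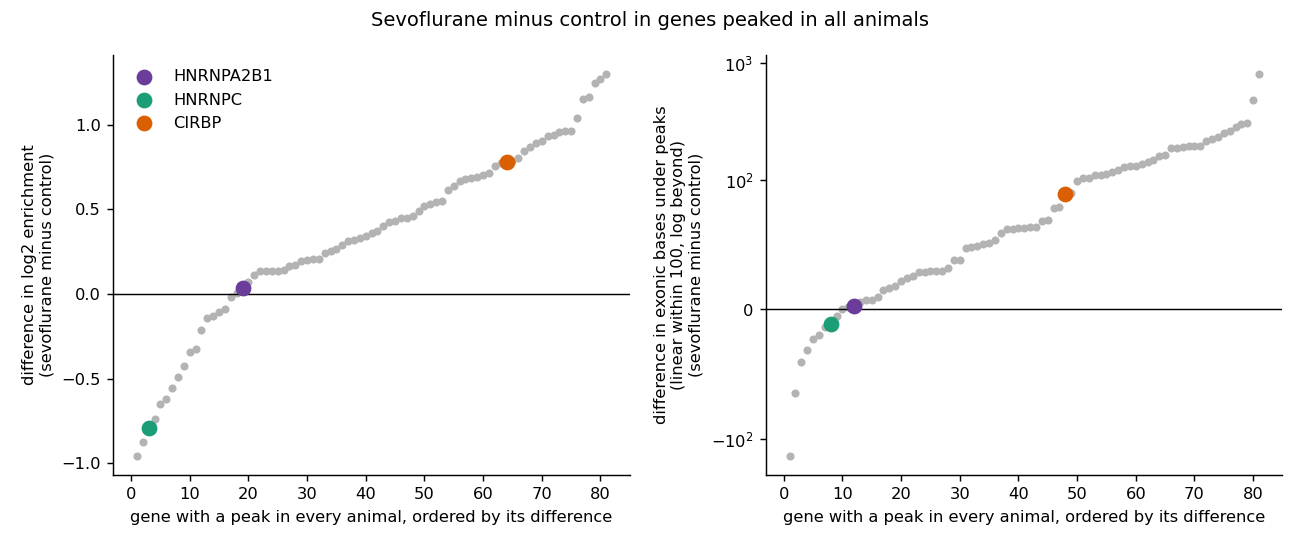
Sevoflurane minus control for the 81 genes with a peak in every animal, ordered by the difference (x axis), for log2 enrichment (left) and exonic bases under peaks (right, linear within 100 bases and logarithmic beyond). In log2 enrichment HNRNPC lies at -0.79, HNRNPA2B1 at 0.034 and CIRBP at 0.78.

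Males and females could be compared only in small numbers. For HNRNPA2B1 the difference in percentile was 16.3 in females (4 against 3 animals) and -18.3 in males (2 against 2), and the female minus male difference of 34.7 had an exact permutation p of 0.10 (adjusted p = 0.838, 150 relabellings of sex within treatment). For HNRNPC the differences were -5.99 and -22.2 (exact permutation p = 0.38, adjusted p = 0.838), and for CIRBP 9.25 and 1.66 (exact permutation p = 0.533, adjusted p = 0.844). Of the 81 genes, 4 (4.94%) had a p under 0.05 for sex before adjustment, none of them among the 3, and 0 (0.0%) after it.

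Over the 11 animals the 3 genes did not rise and fall together. Spearman's rho of the percentile was 0.327 between HNRNPA2B1 and HNRNPC, 0.218 between HNRNPC and CIRBP and -0.0545 between HNRNPA2B1 and CIRBP. These are descriptions over 11 points that share their libraries and list lengths. Among 77 other symbols found in every animal, the pattern most like that of HNRNPA2B1 was of UBE2K, a ubiquitin-conjugating enzyme (rho 0.818), then VASH1, a tubulin-detyrosinating peptidase (0.791), and TSPYL2 (0.745). For HNRNPC it was COX3, a mitochondrially encoded subunit of cytochrome c oxidase (0.80), then NDRG2 (0.664) and RHOBTB2 (0.518). For CIRBP it was KIF1A, the motor of synaptic vesicle precursors (0.727), OGA, the enzyme that removes O-GlcNAc (0.718), and HNRNPA0, another hnRNP (0.682).

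The 3 genes have a peak in every animal by their choice, so other RNA-binding protein genes could only equal or fall below them. For scale, 81 of the 3671 genes with a peak in any animal had one in all 11. In the hnRNP family, which packages nascent transcripts, 14 of 29 genes described here besides the 3 had a peak in any animal and 3 had one in all 11. Those were HNRNPA0, HNRNPR and HNRNPU. Enrichment ran from 8.15 to 143 for HNRNPR, from 7.11 to 27.2 for HNRNPA0 and from 3.18 to 8.9 for HNRNPU, a nuclear matrix protein. PCBP4 was peaked in 3 animals of each group, RALY in 2 of each, and HNRNPA3, a close relative of HNRNPA2B1, in 2 controls and 3 sevoflurane animals.

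These constant hnRNP genes also had no difference that passed the test. The log2 difference was 0.95 for HNRNPR (exact permutation p = 0.171, adjusted p = 0.538), 0.24 for HNRNPU (exact permutation p = 0.42, adjusted p = 0.724) and 0.14 for HNRNPA0 (exact permutation p = 0.764, adjusted p = 0.884). All were above 0, whereas that of HNRNPC was below it. HNRNPA0, like the 3 genes, had 1 peak in every animal.

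The list of cold-inducible and RBMX-like proteins, set beside CIRBP, had few peaks. How closely its members are related to CIRBP was not examined. RBM3, the other cold-inducible protein, had none in any list, RBMX2 had one in C3 and S3, and RBMXL1 in D. Of the 5 listed genes 2 had a peak.

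SR proteins and their relatives, which define exons, had a peak in 10 of 18 genes and in no case in all animals. SRRM1, SRSF1 and SRSF4 were found in 3 animals each, and SRRM2, SRSF7 and TRA2A in 2. The control C3 alone had 7 of the 10, and the median was 0 per control and 3 per sevoflurane animal. C3 had the longest control list, and the part of list length in these counts was not tested.

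Among 31 other RNA-binding proteins with neuronal roles, 12 had a peak. CELF1 and EWSR1 had one in all animals but B. RBFOX3, the neuronal antigen NeuN, had one in 4 controls and 3 sevoflurane animals, FXR2 in 3 and 2, ELAVL3 in 1 and 3, and CELF2 in 2 and 1.

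Presence could be tested for genes found in 2 to 9 animals, which by list were 6 hnRNP, 1 RBMX-like, 7 SR and 5 neuronal genes. Of these 19 genes, 13 were found in only 2 or 3 animals, where the smallest possible p is 0.182 or 0.0606, so the test could have called 6 at most. Before adjustment Fisher's exact p was under 0.05 for 0 of them. In the series it was so for 27 of 1486 genes found in more sevoflurane animals (1.82%) and for 0 found in more controls (0.0%), although 1056 of the 1486 could not reach such a p either. After adjustment 0 genes passed among the lists and 0 in the series (0.0%). ELAVL3 had a Fisher's exact p of 0.242, and SRSF7, at 0 controls and 2 sevoflurane animals, 0.182. Each of the 3 genes formed 1 region present in all 11 animals, so none entered the test of regions, in which 19 of 1265 (1.5%) were found more often in treated animals by a p under 0.05, 0 (0.0%) more often in controls and 0 (0.0%) passed the adjustment.

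**Figure D5:**
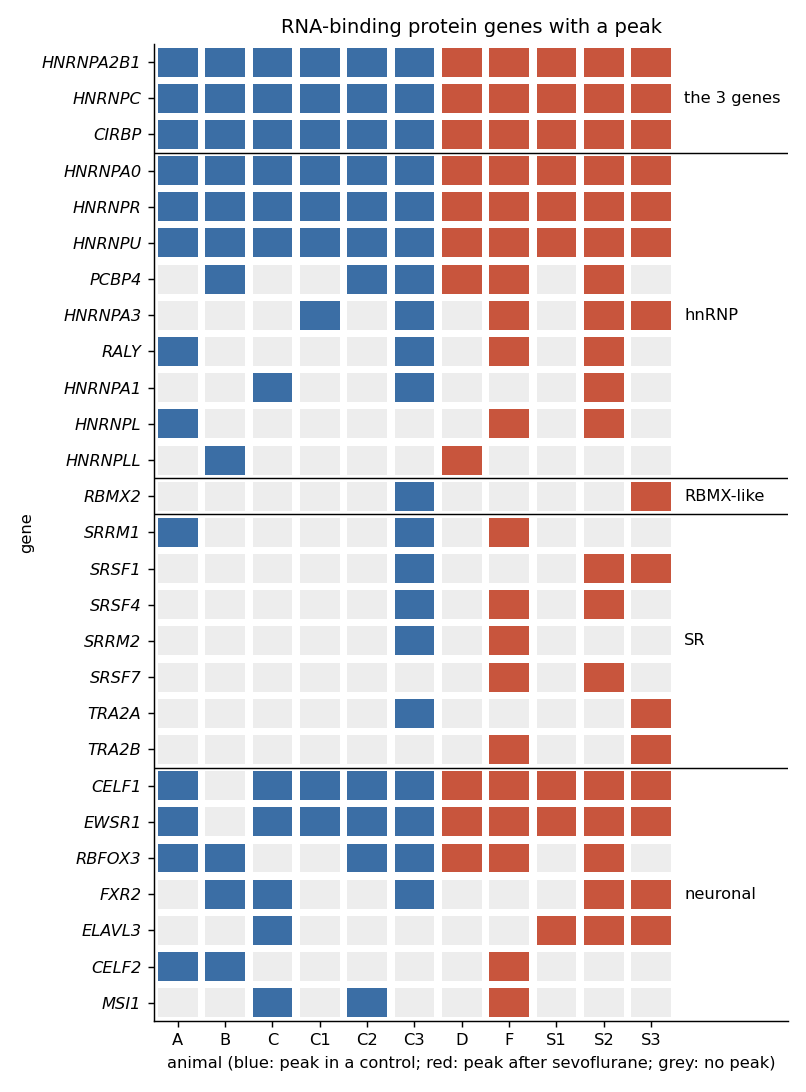
Presence of a peak in each animal (columns; blue for controls, red for sevoflurane, grey for no peak) for the 3 genes and for listed RNA-binding protein genes found in at least 2 animals. HNRNPA0, HNRNPR and HNRNPU fill all 11 columns, as the 3 genes do by their choice, and the SR genes shown fill 2 or 3.

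How firmly the lists held the 3 genes differed. With only peaks at a p-value of at most 1e-05, HNRNPA2B1 and CIRBP were still in all 11 lists and HNRNPC in all but C1, whose HNRNPC peak had a p-value of 1.4e-05. Lists were also cut to equal length, keeping the 452 peaks of lowest p-value. HNRNPC was left in 6 of 6 controls and 3 of 5 sevoflurane animals, having dropped out in S1 and S2. The cut was the full length of the list of C1, whereas those of S1 and S2 held 852 and 1673 peaks. C1 thus kept its HNRNPC peak at a peak p-value of 1.4e-05, while S1 and S2 lost theirs at 8.5e-06 and 6.5e-08. The part of list length was not tested. Of the 81 genes, 64 were left in all 11 cut lists. HNRNPA2B1 and CIRBP were kept in all 11 there as well.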

How the data were processed

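m6A was measured by immunoprecipitation and sequencing of fragmented total RNA from 11 animals, and each immunoprecipitated sample has 1 table of peaks. The authors' deposited p-value, log10 p-value and log10 false discovery rate (negative scores) and fold enrichment (a ratio) belong to each peak, per the file headers. The genome build rheMac8 and the tools HISAT2 2.1.0, StringTie, cutadapt and Trim Galore 0.5.0 are listed in the submitters' processing notes. What called the peaks, and against which background, is not given in the sources used here. Read totals are not part of the tables, so the depth is unknown and no counting interval was computed. The 11 input samples were not used here.

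Genes followed the identifier under which a peak was called, version removed. Symbols came from the supplied table for 3235 of 3671 genes and from the peak tables for 250. Of the 3 genes, HNRNPA2B1 and HNRNPC were named by the supplied table and CIRBP by the peak tables. Starts count from 0 in the files, and 1 was added. In each animal a gene took its peak of highest enrichment, the percentile of that peak among all genes of the list, its number of peaks and the exonic bases under them. Differences were tested over the 81 genes with a peak in all lists, with two-sided exact permutation tests of the absolute difference in means (462 splits into 6 and 5 animals, smallest p = 0.00216) and Benjamini-Hochberg adjustment over all 81. Intervals of 95% are the shifts that the test did not reject. Fisher's exact test compared presence for genes and regions found in 2 to 9 animals. The sex difference was tested with 150 relabellings of sex within treatment. Python 3.11.15, numpy 2.4.6 and scipy 1.17.1 were used. The permutation test of means with its adjustment and Fisher's exact test were run on simulated data, and the joining of regions on made-up peaks. The intervals, the sex test, the replicate block and the Dixon check described below were not tried in this way.

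The 3 genes and the gene lists were chosen with earlier results of these data known. Of each list up to 6 genes with a peak in most animals were named, ties by symbol (1 gene of the hnRNP list is not reported here), and for each of the 3 genes the 3 others with the highest Spearman correlation of the percentile. The alternatives tried were peaks with p of 1e-05 or less, lists of equal length, the annotation column's gene, the peak of lowest p-value, ranks among the 81 genes, medians, each sex, animals named by a letter or by a letter and number, a block for the replicate number, joining peaks at 50% reciprocal overlap, and leaving out each animal. Ranks by p-value, ranks among genes in all lists of equal length, and bases relative to the median gene were chosen after seeing the data. A planned search for a sequence motif was not run. The labels do not say whether numbers shared by names (C1 and S1, and so on) pair the animals. The correlations of same-numbered deviations were 0.131, -0.053 and 0.252, and those of different numbers ran from -0.168 to 0.108. These few values cannot settle whether the animals were paired, and the main tests treated them as unpaired.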

Additional observations from a re-analysis of the deposited data

Results flagged for a closer look

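In 3 of 18 groups of values of HNRNPA2B1, HNRNPC and CIRBP (3 measures in each treatment group), 1 animal lay farther from the others than Dixon's 95% limit. Chance gives about 1 such case in 20 groups when values are independent and normally spread. The measures of a gene are related and exonic bases often repeat the same value, so the 3 cases cannot be read against that rate. All 3 cases were in sevoflurane animals. The log2 enrichment of HNRNPA2B1 was 2.05 in S1. The HNRNPC peak of S1 covered 118 exonic bases, against 177 or 178 in the others. CIRBP stood at percentile 76.5 in D.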

How the results depend on the processing

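None of the 265 recomputed values of the 3 genes had an adjusted p under 0.05, and the smallest adjusted p was 0.282. Many of them could not have passed. For each gene 20 are numbers of peaks, which were 1 wherever a peak was present and so cannot differ. Values in males, single-letter animals, numbered animals and the replicate block rest on too few animals for a p under 0.05. In males the smallest possible permutation p is 0.333. The log2 enrichment of HNRNPC was lower after sevoflurane in all 21 alternatives, from -1.03 to -0.54 when each animal was left out (exact permutation p from 0.0556 to 0.40 over all alternatives), and that of CIRBP higher in 20 of 21. These alternatives are not all separate, since each gene had 1 peak per animal. For both genes, the annotation column's gene and the peak of lowest p-value repeated the main difference. For CIRBP so did stricter peaks and lists of equal length. For HNRNPC, stricter peaks repeated the value without C1. The replicate block repeated the value of the numbered animals. In 34 of the 265 values the sign turned, and the cause was not tested. For HNRNPA2B1 the percentile difference turned to -4.28 in lists of equal length, -4.65 among the genes in all lists, -5.625 with both and -18.3 in males. Its log2 difference turned to -0.78 in males and -0.039 in single-letter animals. Its difference in bases turned to -15.0 by medians, -30.0 in males, -10.3 in numbered animals, and -0.23 when bases were divided by the median gene's. With the replicate number as a block (C1 to C3 against S1 to S3) it was -10.3 too. The block rests on too few pairs for a p under 0.05, so it could not have made a call. HNRNPC turned to 0.667 bases in lists of equal length and in single-letter animals, to 0.5 by medians, and to a percentile difference of 4.775 when ranked by p-value. CIRBP turned to -2.43 in percentile and -0.25 in log2 enrichment in single-letter animals, and its sex difference to -5.56 among the genes in all lists. Leaving out each animal gave HNRNPA2B1 differences of -1.72 to 11.01 in percentile, -0.18 to 0.30 in log2 enrichment and -30.0 to 29.75 in bases, and HNRNPC -29.0 to 6.0 bases. For CIRBP it gave 2.615 (without C1) to 10.27 (without D) in percentile and 0.48 (without C1) to 1.12 (without D) in log2 enrichment. In the numbered animals, with or without the replicate block, CIRBP differed by 12.5 in percentile and 1.55 in log2 enrichment. Neither test could pass there, since so few animals allow no p under 0.05. The sex difference of HNRNPC could not be computed with stricter peaks or lists of equal length, which lack its peak in some animals. With 50% reciprocal overlap the CIRBP peak of B formed a region of its own. Depth is unknown, and the number of animals limits the precision.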
